A study of Mus musculus with 2 samples.

Results

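Small proline-rich protein 1 genes and the keratins of simple epithelia were read as markers of epithelial injury and of bile duct cells in fibrotic mouse liver. The members were Sprr1a, Sprr1b, Krt7, Krt8, Krt18, Krt19, Krt20 and Krt23, 8 of the 20284 genes with a probe on the array. They were chosen by name as epithelial injury and ductular genes, and selected on knowledge of the signals of these same 2 arrays, among them the difference of Sprr1a, so that every difference below is a description. The treated mice were male C57BL/6 animals with liver fibrosis that had been given the recombinant protein TSG-6 into a vein; TSG-6 is secreted and binds hyaluronan. The control mice, of the same sex and strain and also fibrotic, had received PBS. How fibrosis was induced and the age of the mice are not given in the sources used here. Liver RNA was taken 2 weeks after treatment. Equal parts of RNA from 3 mice of a group made 1 pool, and each pool was hybridised to 1 one-colour Agilent array on the same slide.

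Keratins are the intermediate filament proteins of epithelial cells, built as pairs of a type I and a type II chain. Hepatocytes carry mainly the pair of Krt8 (type II) and Krt18 (type I), while adult bile duct cells add Krt7 (type II) and Krt19 (type I). Krt20 is a type I keratin known from intestinal and urothelial surface epithelium, and Krt23 is a type I keratin known to be induced in stressed mouse liver. Sprr1a and Sprr1b encode precursors of the cornified envelope, the cross-linked protein layer of squamous epithelium, and Sprr1a is also known as a gene that injured neurons switch on. Whole liver holds all its cell types, so fewer cells of a type and less RNA per cell cannot be told apart.

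The 2 Sprr1 genes and Krt20 stood lower in the TSG-6 pool, and the other 5 keratins differed little. The sequences before the starts of those 3 genes are shown because their RNA differed most. Each line gives the 250 bases upstream of the RefSeq transcript start (build GRCm38.p6, 5′ to 3′ on the gene's strand), with matches to the AP-1 motif TGANTCA and to the TATA box TATAAA in capitals. The windows are chr3:92485882-92486131 for Sprr1a, chr3:92438780-92439029 for Sprr1b and chr11:99438154-99438403 for Krt20, all on the minus strand.
Sprr1a: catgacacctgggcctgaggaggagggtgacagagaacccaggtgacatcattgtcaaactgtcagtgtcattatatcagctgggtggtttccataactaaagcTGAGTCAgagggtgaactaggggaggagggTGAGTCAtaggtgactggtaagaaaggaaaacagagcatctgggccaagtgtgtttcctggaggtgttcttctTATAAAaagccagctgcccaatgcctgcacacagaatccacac
Sprr1b: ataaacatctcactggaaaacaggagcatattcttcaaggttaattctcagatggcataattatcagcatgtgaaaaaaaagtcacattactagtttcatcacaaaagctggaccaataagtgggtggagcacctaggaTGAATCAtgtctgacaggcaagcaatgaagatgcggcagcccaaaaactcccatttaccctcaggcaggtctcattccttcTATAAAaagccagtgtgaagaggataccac
Krt20: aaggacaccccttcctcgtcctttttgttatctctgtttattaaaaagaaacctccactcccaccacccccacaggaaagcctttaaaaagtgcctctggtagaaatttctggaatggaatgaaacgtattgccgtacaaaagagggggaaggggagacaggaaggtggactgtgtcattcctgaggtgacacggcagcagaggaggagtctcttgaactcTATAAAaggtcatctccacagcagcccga

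Sprr1a held 2 AP-1 matches, both TGAGTCA, with first bases at -146 and -116 relative to the transcript start. Sprr1b held 1, TGAATCA, with its first base at -111. The motif as searched allows any base in the middle, here and in the shares below. The Sprr1b match has A there and both Sprr1a matches have G, and binding at any of them was not tested. Both windows shared a run of 13 bases that includes the TATA box, TATAAAAAGCCAG, which begins at -43 in Sprr1a and at -30 in Sprr1b. Krt20 held a TATA box at -29 and no AP-1 match. No AP-1 or TATA match lay in the windows of Krt7, Krt8, Krt18 or Krt23, which says only that these letters are not in those 250 bases. Both strands were searched. TTCNNNGAA, the STAT motif, and TGACGTCA, the cAMP response element, had no match in any of the 7 windows. Over 27025 RefSeq promoters of the same length, 6.87% held the AP-1 motif at least once and 0.326% at least 2 times, 13.0% held the TATA box, 7.18% the STAT motif and 1.62% the cAMP response element. Among genes other than the members that were measured on both arrays, the log2 difference had a median of 0.07 over 26 genes with at least 2 AP-1 matches, 0.09 over 608 genes with 1 match and 0.07 over 11381 genes with none. Of these, 3.85%, 5.76% and 4.07% were lower by 2-fold or more, and the share for genes with at least 2 matches rests on 1 gene. Higher by 2-fold or more were 3.85%, 4.61% and 2.77%, in the same order. Krt19 is named only.

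**Figure D1:**
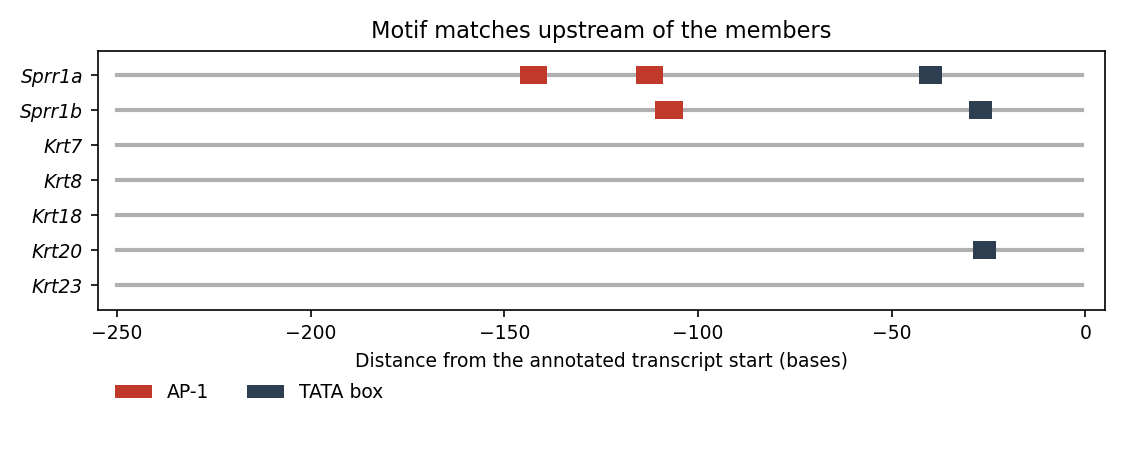
Motif matches in the 250 bases upstream of the annotated transcript start of 7 members, by distance from the start in bases. Red boxes are AP-1 matches and dark boxes TATA boxes: Sprr1a has 2 AP-1 matches, Sprr1b 1, and the keratins none, while Sprr1a, Sprr1b and Krt20 each have 1 TATA box.

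Values are given as the processed signal, a linear brightness already corrected for background within each array, and as the log2 level, which is the log2 of that signal relative to the array's 75th percentile (2476 on the TSG-6 array and 3158 on the PBS array). A difference is the log2 level in the TSG-6 pool less that in the PBS pool. Brightness depends on the probe, so signals are compared between pools and not between genes. The TSG-6 and PBS arrays each held 59305 non-control spots, of which 73.9% and 73.1% of the spots without an outlier mark exceeded background by the scanner software's rule, and no spot was saturated. Each member had 1 probe with 1 spot on each array, and none of these spots was marked as an outlier. With 1 pool per group no test could be made, no p-value is given, and the spread between mice is unknown. Over 327 probes with replicate spots, the log2 difference varied with an SD of 0.13, and the scanner software's own error came to 0.20 for the log2 difference of Sprr1a. Both measures leave out the spread between mice.

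Sprr1a had a signal of 987 in the TSG-6 pool, against 37853 in the PBS pool. Its log2 level was -1.33 in the TSG-6 pool and 3.58 in the PBS pool, a difference of -4.91, or 30.1-fold lower. It ranked as number 7 from the lowest of the 15151 genes measured on both arrays. Its spot was well above background on both arrays, so that the lower value in the TSG-6 pool is a measured level and not a limit.

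Sprr1b had a signal of 4.3 in the TSG-6 pool, which was not well above background, against 3348 in the PBS pool. Set against the lowest signal that counted as well above background on the TSG-6 array (a log2 level of -7.06), the TSG-6 pool had at least 141-fold lower Sprr1b, a bound of -7.14 on the log2 difference. The bound depended on the background step and was -5.10 with normexp correction and -6.02 with a stricter filter on dim probes. It was the number 2 bound in size among 274 genes that were well above background on the PBS array alone, of which 34.7% had a bound of 2-fold or more.

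**Figure D2:**
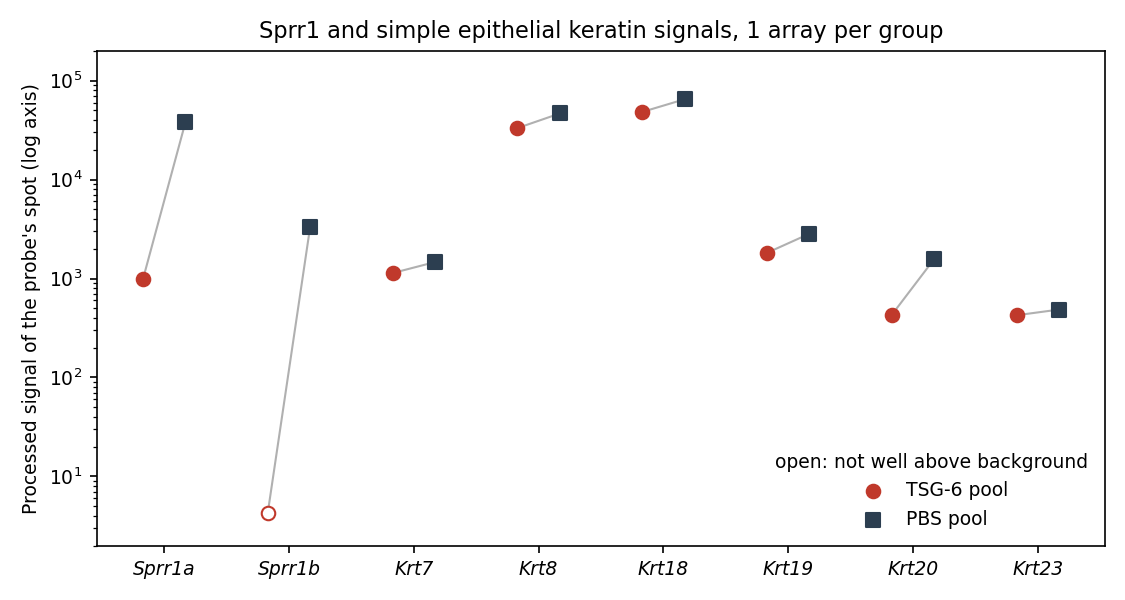
Processed signal of each member's spot (log axis) in the TSG-6 pool (red circles) and in the PBS pool (dark squares), 1 array each, with no error bars because there are no replicates. Sprr1a, Sprr1b and Krt20 are lower in the TSG-6 pool, the spot of Sprr1b there (open circle, 4.3) is not well above background, and the other 5 pairs lie close together.

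Among the keratins Krt20 differed most. Its signal was 429 in the TSG-6 pool, against 1571 in the PBS pool, and its log2 level was -2.53 in the TSG-6 pool and -1.01 in the PBS pool. The difference of -1.52, or 2.87-fold lower, lay at percentile 1.67 of all measured genes and at percentile 3.3 of its class when genes were split into 4 equal classes by signal.

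The bile duct keratins differed less. Krt19 had a signal of 1815 in the TSG-6 pool and 2833 in the PBS pool, and its log2 level was -0.45 in the TSG-6 pool and -0.16 in the PBS pool, a difference of -0.29. Krt7, the type II keratin of the same cells, had a signal of 1134 in the TSG-6 pool, against 1466 in the PBS pool, a difference of -0.02. The 2 bile duct keratins thus differed by 0.27 from each other in their log2 differences, with Krt19 the lower.

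The hepatocyte pair had close log2 differences in the main setting. Krt8 had a signal of 33065 in the TSG-6 pool, against 46499 in the PBS pool, a log2 difference of -0.14. Krt18 had a signal of 48152 in the TSG-6 pool, against 64694 in the PBS pool, a difference of -0.08. The log2 differences of the pair lay 0.07 apart, within the SD of replicate spots. With normexp they were -0.34 for Krt8 and 0.02 for Krt18, farther apart than that SD. In the brightest of those classes, which held both, the middle 50% of differences ran from -0.02 to 0.34, so Krt8 and Krt18 lay below it, at percentiles 14.3 and 19.4. Hepatocyte markers were on the other side of 0 in the main setting. All 10 that could be measured were higher in the TSG-6 pool and none by 2-fold, with a median of 0.36. Transferrin (Trf), 1.35-fold higher, and fibrinogen beta (Fgb), 1.34-fold, differed most. The side depended on the scaling: the median was -0.014 with quantile normalization and -0.005 with spike-in scaling. Before scaling, the summed signal of these markers was 584213 in the TSG-6 pool and 582682 in the PBS pool.

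Krt23 was the 1 member with a higher level in the TSG-6 pool. Its signal was 425 in the TSG-6 pool, against 486 in the PBS pool, and relative to each array's 75th percentile this was a log2 level of -2.54 in the TSG-6 pool and -2.70 in the PBS pool, a difference of 0.16. That difference was close to the SD of replicate spots.

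Of the 7 members with a level on both arrays, 2 passed 2-fold on the lower side (Sprr1a and Krt20) and none on the higher side. Of all 15151 genes with a level on both arrays, 4.29% passed 2-fold on the lower side and 2.94% on the higher side, and since the members were picked with this contrast known, nothing is read from the comparison. The median difference over all those genes was 0.08, and the central 95% ran from -1.29 to 1.08. These shares and this median are the background for the counts and medians of all gene groups below. Under other scalings that median ran from -0.29 with spike-in controls to 0.37 with the percentile of spots without an outlier mark. Relative to the median of all genes, Krt8, Krt18, Krt7 and Krt19 lay at -0.22, -0.15, -0.10 and -0.37, and they stayed below it under all 12 alternative settings. Without that reference, the sign of Krt7, Krt8 and Krt18 turned with the scaling. Their highest differences were 0.27, 0.15 and 0.21, all with the percentile of spots without an outlier mark. Krt23 lay 0.08 above the median of all genes and above it under all 12 alternatives, although its difference was -0.21 with spike-in scaling. Scalings that move all genes alike cannot change a place relative to that median. The filter, flag and probe settings left the differences of these keratins unchanged. Most of the 12 alternatives therefore could not have turned these places, and nothing is read from their number.

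**Figure D3:**
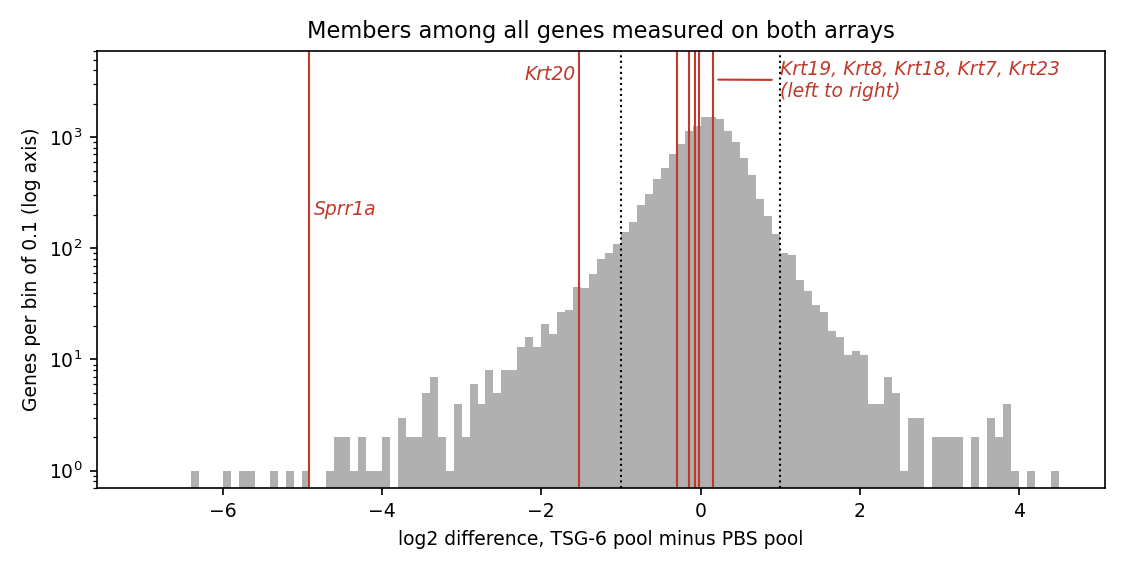
Distribution of the log2 difference (TSG-6 less PBS) over 15151 genes measured on both arrays, in bins of 0.1 with a log count axis. Red lines mark the 7 members measured on both arrays and dotted lines 2-fold: Sprr1a at -4.91 and Krt20 at -1.52 lie beyond 2-fold lower, and the other 5 keratins lie between -0.29 and 0.16.

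Other keratins past 2-fold were 1 lower and 1 higher, against 4.29% and 2.94% of all genes measured on both arrays. Nothing particular to keratins is read from these counts. Of 47 other keratin genes with a value, 33 were measured on both arrays, 10 were on neither above background, 1 on the PBS array alone and 3 on the TSG-6 array alone. Their median difference was 0.18, with 9 below 0 and 24 above, against 0.08 for all genes. Krt5, a basal cell keratin of stratified epithelium, was 6.47-fold lower with its brighter probe, which had signals of 26.7 in the TSG-6 pool and 220.3 in the PBS pool. Its other probe differed by 0.19 and was the one left under the stricter filter on dim probes, so its value is uncertain. Krt12, known from the cornea, was 2.40-fold higher, at signals of 87.4 in the TSG-6 pool and 46.4 in the PBS pool. Its log2 difference of 1.26 came inside 2-fold with normexp (0.63) and with spike-in scaling (0.90). The 4 others with the highest signals were Krt222 (a difference of 0.38), Krt81 (-0.69), Krt13 (-0.60) and Krt42 (-0.14).

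Genes of the cornified envelope divided. Of 32 listed, 29 had a value and 13 were measured on both arrays, with a median of 0.22. Past 2-fold, 2 were on the lower side and none on the higher side, against 4.29% and 2.94% of all genes measured on both arrays. Involucrin (Ivl), an early cornified envelope protein, had a signal of 154.6 in the TSG-6 pool, against 1354 in the PBS pool, 6.87-fold lower, and its 2 probes differed by -4.75 and -2.78. Sprr2b had a signal of 207.3 in the TSG-6 pool, against 613 in the PBS pool, 2.32-fold lower. Its log2 difference of -1.21 came inside 2-fold with the percentile of spots without an outlier mark (-0.92) and with normexp (-0.87). Members of the Sprr2 group have similar sequences, so the value of any one is uncertain, and the 2 probes of Sprr2a2 differed by -1.34 and 0.22. Scel (-0.81) and loricrin (Lor, -0.79) were below 2-fold in the main setting, as were Sprr4 (0.66) and envoplakin (Evpl, 0.55) on the higher side. Across the alternatives Scel reached -1.17 and Lor -1.15, past 2-fold. Of the 15 that were above background on neither array, Sprr3 had signals of 4.2 in the TSG-6 pool and 5.4 in the PBS pool.

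Sprr1a and Sprr1b lie in the epidermal differentiation complex, a cluster of cornified envelope genes on chromosome 3, and in the RefSeq gene order 1 gene, Sprr3, stands between them. A list of the 10 protein-coding genes on either side and Sprr3 was added after the data were seen. Of these 21 neighbours 18 had a value and 8 were measured on both arrays, with a median of 0.22. Lower by 2-fold or more were Ivl and Sprr2b, and Lce1d, which encodes a late cornified envelope protein and was well above background on the PBS array alone, was at least 20.3-fold lower, with signals of 4.1 in the TSG-6 pool and 481.5 in the PBS pool. The bound of -4.34 for Lce1d was -2.53 with normexp. Smcp, a sperm mitochondrial protein gene 3 places beyond Sprr1a, differed by 0.87, and 9 neighbours were above background on neither array.

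Genes that anchor keratin filaments differed little. Of 14 desmosome and linker genes, 13 were measured on both arrays, 11 of them above 0. Their median was 0.18, against 0.08 for all genes. Plakophilin 1 (Pkp1), a desmosomal plaque protein, was 2.22-fold lower, at signals of 117 in the TSG-6 pool and 331.2 in the PBS pool, but inside 2-fold with the percentile of spots without an outlier mark (-0.86) and with normexp (-0.81). The desmosomal cadherin Dsc2 (0.52) and the linkers epiplakin (Eppk1, 0.37) and periplakin (Ppl, -0.51) stayed within 2-fold. Of 9 measured components and regulators of Mallory-Denk bodies, the keratin aggregates of stressed hepatocytes, 1 was at least 2-fold lower. It was the small heat shock protein gene Hspb1, 2.03-fold lower, and inside 2-fold with the percentile of spots without an outlier mark (-0.73) and with normexp (-0.98). The related Cryab stood at -0.58 and the scaffold Sqstm1 at -0.05, and the median was 0.07.

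Bile duct markers stood slightly lower. Of 22 measured on both arrays, 15 were below 0 and the median was -0.27, against 0.08 for all genes. By at least 2-fold, 2 were lower and 2 higher, against 4.29% and 2.94% of all genes measured on both arrays. The integrin subunit Itgb6 was 3.08-fold lower, while the growth factor receptor Fgfr2 (-0.83) and osteopontin (Spp1, -0.82) were lower by less than 2-fold in the main setting. Across the alternatives Fgfr2 reached -1.19 and Spp1 -1.18, past 2-fold. Higher were the transcription factor Onecut1 (3.99-fold), which hepatocytes also express, and Ggt1 (2.87-fold), whose log2 difference of 1.52 came inside 2-fold with normexp (0.67) and with the stricter filter (0.94). With the percentile of spots without an outlier mark 1 was lower and 3 higher, and with spike-in scaling 5 were lower and 2 higher. Summed over 23 of these genes, the signal in units of each array's 75th percentile was 27.5 in the TSG-6 pool, against 36.6 in the PBS pool. That ratio of 0.750 was 0.866 without Spp1, the brightest. Cftr was above background on neither array. Epcam and Sox9, named here although their spots carried an outlier mark, differed by 0.16 and -0.92 with such spots kept.

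**Figure D4:**
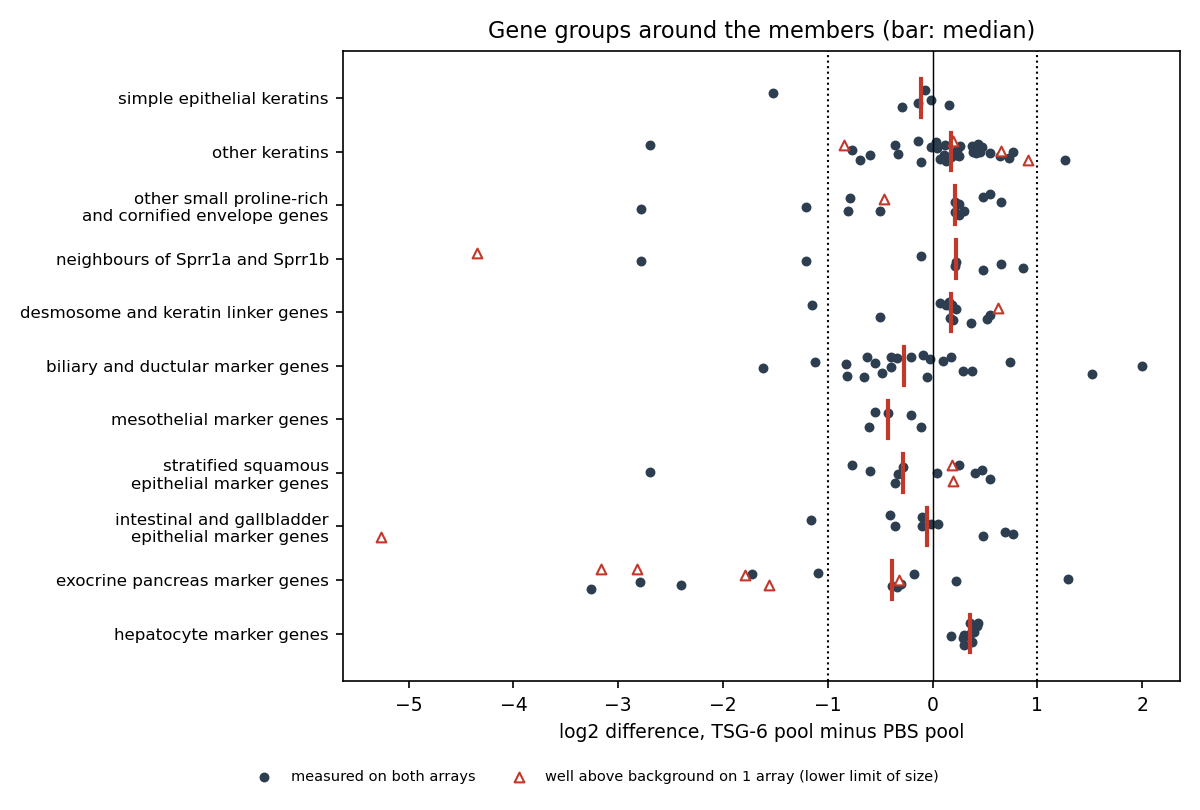
Log2 difference (TSG-6 less PBS) of each gene in 11 groups, with points for genes measured on both arrays, open triangles for genes above background on 1 array (a lower limit of size), red bars for medians over measured genes and dotted lines at 2-fold. The medians run from -0.43 for mesothelial markers to 0.36 for hepatocyte markers, while single genes of several epithelial groups lie far to the left.

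Markers of other epithelia that the sample could hold differed beside the members. Among 11 exocrine pancreas markers with a value on both arrays, 5 passed 2-fold on the lower side and 1 on the higher side. Over all genes measured on both arrays these shares were 4.29% and 2.94%. Of 5 more markers found on the PBS array alone, 4 were lower by a bound of 2-fold or more. A gene found on the PBS array alone can only give a bound on the lower side, and 34.7% of all 274 such genes had one of 2-fold or more. The median of the pancreas markers over measured genes was -0.39, and it ran from -1.72 over 17 genes without a filter on dim probes to -0.10 with the percentile of spots without an outlier mark. Normexp left 4 past 2-fold on the lower side, none on the higher side and 2 by a bound. Summed over 17 genes, their signal in units of each array's 75th percentile was 0.912 in the TSG-6 pool, against 2.08 in the PBS pool, a ratio of 0.438, or 0.595 without Cela1, the brightest. The protease gene Prss2 was 9.55-fold lower, a log2 difference of -3.26 that was -1.44 with normexp, and Cela1 was 3.29-fold lower. Cela2a was 2.44-fold higher, but its log2 difference was 0.97 with normexp and 0.92 with spike-in scaling, inside 2-fold. The lipase gene Pnlip had signals of 6.3 in the TSG-6 pool and 167.7 in the PBS pool. Pancreatic duct cells also carry several of these keratins, and the part of pancreatic RNA in the values of the members was not tested.

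Intestinal and gallbladder markers had a median of -0.06 over 10 measured genes, with 1 at least 2-fold lower, the goblet cell peptide Tff3 (2.24-fold), whose difference of -1.16 was -0.88 with the percentile of spots without an outlier mark. Cdh17, an intestinal cadherin, was well above background on the PBS array alone and at least 38.3-fold lower, with signals of 9.9 in the TSG-6 pool and 908.1 in the PBS pool. The intestinal transcription factors Cdx1 and Cdx2 and the mucin Muc2 were above background on neither array. Summed in units of each array's 75th percentile, the 14 genes came to 18.3 in the TSG-6 pool, against 19.2 in the PBS pool, and Fabp2 gave 67.8% of the sum in the TSG-6 pool and 69.0% in the PBS pool. Mesothelial markers, whose cells cover the liver and also carry simple keratins, were all 5 below 0, led by Upk1b (-0.61) and Wt1 (-0.55). None of these markers passed 2-fold, and their median was -0.43, against 0.08 for all genes. Their scaled sum was 1.85 in the TSG-6 pool, against 2.47 in the PBS pool. Stratified squamous markers had a median of -0.28 over 11 genes, with Krt5 the 1 past 2-fold lower and none higher. Krt17 differed by -0.77 and Krt16 by 0.55, and the scaled sum of the 15 genes was 25.3 in the TSG-6 pool, against 20.0 in the PBS pool, a ratio of 1.26. Trp63, with signals of 58822 in the TSG-6 pool and 56531 in the PBS pool, gave 94.0% and 89.5% of the sum. The ratio without Trp63 was 0.720. Whether its probe reads only Trp63 RNA was not checked, so the full sum describes mainly this 1 probe. The part of these cells in the values of the members was not tested. With spike-in scaling, which moved all genes to a median of -0.29, the group medians turned to the lower side for other keratins (-0.19), cornified envelope genes (-0.15), their neighbours (-0.14), desmosome genes (-0.19), hepatocyte markers (-0.00) and Mallory-Denk body genes (-0.29). Other settings also turned some of them. With quantile normalization Mallory-Denk body genes came to -0.17 and hepatocyte markers to -0.01, and without a filter on dim probes the neighbours came to -0.02. At the other end of the settings the median reached 0.01 for bile duct, 0.05 for squamous and 0.23 for intestinal markers.

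Ligands and receptors of the interleukin-6 family, which signal through the STAT3 factor, did not differ by 2-fold in the main setting where measured on both arrays. Of 12, 8 were above 0 and the median was 0.12, or -0.25 with spike-in scaling. Stat3 (0.50) and its feedback inhibitor Socs3 (0.50) were on the higher side and Cntf (-0.92) on the lower. Cntf reached -1.285 across the alternatives, and 1 of the 12 was past 2-fold lower, for example with scaling to the median and with spike-in scaling. The ligand gene Lif, above background on the PBS array alone, was at least 2.10-fold lower, but the bound of -1.07 on its log2 difference was -0.78 with the percentile of spots without an outlier mark and -0.15 with normexp. Of 9 measured genes that injured neurons switch on together with Sprr1a, 2 passed 2-fold on the lower side and none on the higher side, with a median of 0.27. The median was -0.09 with spike-in scaling, 0.02 over 12 genes with spots that carry an outlier mark kept and -0.44 over 6 genes with the stricter filter, so the list has no settled direction. Those past 2-fold were the transcription factor gene Atf3, with signals of 1134 in the TSG-6 pool and 15816 in the PBS pool and 10.9-fold lower, and Hspb1, whose difference came inside 2-fold as given above. Jun, a subunit of AP-1, differed by -0.65 and Gap43, a growth cone protein gene, by 0.97.

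The genes nearest to Sprr1a in difference, taken over genes whose signal reached the median, were Elovl7, Afp and Atf3. Their log2 differences lay 1.25, 1.31 and 1.46 from that of Sprr1a, a likeness over only 2 arrays. Elovl7, a fatty acid elongase gene, had signals of 592.8 in the TSG-6 pool and 9575 in the PBS pool, and Afp, the alpha-fetoprotein of fetal liver, had 560.6 in the TSG-6 pool and 8680 in the PBS pool.

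**Figure D5:**
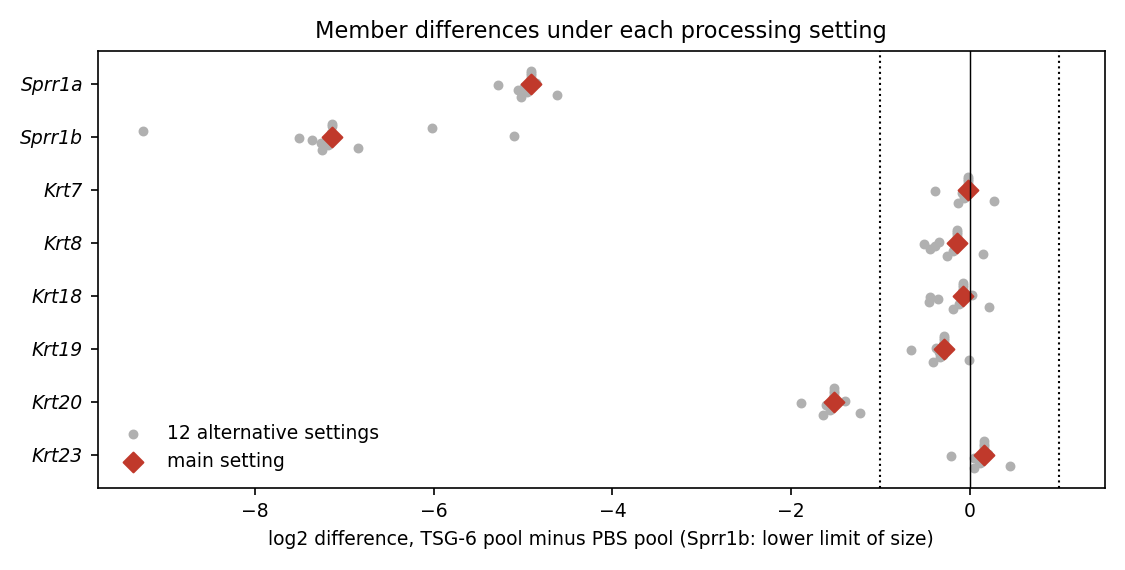
Log2 difference of each member (TSG-6 less PBS) under the main setting (red diamonds) and 12 alternative settings (grey points), with dotted lines at 2-fold; the values of Sprr1b are lower limits of size except without a filter on dim probes. Sprr1a, Sprr1b and Krt20 stay beyond 2-fold lower throughout, and the other 5 keratins stay within 2-fold.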

How the data were processed

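Total liver RNA was profiled in 2 pools of 3 mice, 1 for TSG-6 and 1 for PBS, from 0.2 ug of RNA each. The deposited scanner files give intensity on a linear scale; the processed signal is background-subtracted and detrended by Agilent Feature Extraction 11.5.1.1, per the file headers, while the submitters' processing notes name 10.7. The authors' deposited value table holds log2 values, which equalled the log2 processed signal minus 1 constant per array within 0.001 for 100.0% of single-spot probes. Its column medians were -3.77 for TSG-6 and -3.90 for PBS.

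Control spots and spots with an outlier flag (6.44% on the TSG-6 array and 3.40% on the PBS array) were left out, and log2 signals were scaled to the 75th percentile of all non-control spots. Detection of a probe needed 50% or more of its spots above background, and a probe detected on 1 array gave a bound. Accessions were matched to symbols through a RefSeq table of GRCm38.p6; the array was designed on mm9, per the file headers. Of 55681 probes 26762 matched a gene. Each gene took its value from the probe detected on most arrays and then brightest, after averaging of replicate spots. With no residual degrees of freedom, a size rule of 2-fold replaced a test. The rule was tested on simulated data, which cannot give its error rate here because the spread between mice is unknown. The members and gene lists, the scaling over all non-control spots and the handling of flagged spots were chosen with earlier results of these data known. Named genes were all members, other keratins past 2-fold plus the 4 brightest, the 6 largest differences in each list, those past 2-fold by a bound, and the 3 genes nearest to Sprr1a; genes outside this rule are named for their role or as absent, and 1 gene that the rule names is not reported here. The 12 alternatives covered scaling, background correction (normexp, offset 50, limma 3.58.1, R 4.3.3), the value table, filters, flags and probes.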

Additional observations from a re-analysis of the deposited data

How the results depend on the processing

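Sprr1a and Krt20 were at least 2-fold lower under all 12 alternatives, with log2 differences from -5.28 to -4.62 and from -1.89 to -1.23. Sprr1b ran from -9.25 without a filter on dim probes to -5.10. The other 5 keratins stayed within 2-fold, with Krt19 from -0.66 to -0.00, Krt8 from -0.51 to 0.15, Krt18 from -0.45 to 0.21, Krt7 from -0.38 to 0.27 and Krt23 from -0.21 to 0.45. The counts over all genes moved more than 1.5 times from 650 lower and 446 higher: 376 lower and 1018 higher with the percentile of unflagged spots, 1390 and 192 with spike-in scaling, 402 and 290 with normexp. Without a filter on dim probes 906 were higher. Other keratins at least 2-fold lower numbered 1 in the main setting, 3 with spike-in scaling, 2 without a filter and 0 with the stricter filter, under which Krt5 was read from its other probe. The normexp value was -1.20 for Krt5, -2.32 for Ivl and, as bounds, -3.16 for Cdh17 and -2.53 for Lce1d. The causes were not tested. No paired analysis was possible because each group holds 1 array. Signal over background limits Sprr1b, Lce1d, Cdh17 and the dim pancreatic genes to bounds.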

Other observations

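Lower in rank than Sprr1a stood 6 genes, named here after their values were seen. The neuropeptide gene Npy was 60.4-fold lower in the TSG-6 pool, with signals of 73.6 in the TSG-6 pool and 5673 in the PBS pool. The calcium-binding protein gene S100g, known from intestinal epithelium, was 53.8-fold lower, with 119.6 in the TSG-6 pool and 8205 in the PBS pool, and its 2 probes differed by -5.95 and -5.75. Gml was 39.7-fold lower and Prrt4 49.0-fold. The collagenase gene Mmp13 was 34.8-fold lower. Hsd3b4, a steroid dehydrogenase gene of a family with similar sequences, was 79.0-fold lower with its brighter probe, while its other probe differed by -0.13, so its value is uncertain.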
